A study of Caenorhabditis elegans with 2 samples.

Results

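Translation factors and aminoacyl-tRNA synthetases are the enzymes and assembly factors that every cell uses to make protein, and 64 of the 19983 protein-coding genes of Caenorhabditis elegans were followed here by their names. They comprised 25 genes named eif-, for initiation, 6 named eef-, for elongation, and 33 synthetase genes named by an amino acid letter followed by ars-. They were chosen by name in the RefSeq annotation of WBcel235 (ce11) and not by any measured value. The cysteine gene cars-2 is annotated as a pseudogene and was left out.

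The data came from chromatin immunoprecipitation followed by sequencing (ChIP-seq) for LSY-27, a zinc finger transcription factor, in whole young adult hermaphrodites of the transgenic strain OP401. This strain stably carries LSY-27 with a GFP-FLAG tag at its C terminus, and the descriptions name an anti-GFP antibody while the antibody label names lsy-27. There were 2 biological replicates, numbered 2 and 3, in 1 group, and the control was not analysed here. Signals from different tissues of the animal cannot be told apart in such samples, and age beyond the stage is labelled as unknown.

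Each of the 4 lists used gives regions with a summit and a signal, a score that the authors assigned to it. There were 342 thresholded regions, and these were also the 342 strongest of the pooled relaxed list of 30000 regions. Replicate 2 alone had a relaxed list of 12414 regions and replicate 3 alone one of 29326. The relaxed lists reach down to background by design, so a region in them is not by itself a bound site. The sources used here do not give the scale of the signal or the read depth, so signals were compared within a list only and no interval could be attached to them. A gene was given the strongest region whose summit fell in a window around its annotated 5′ end, reaching 1000 bp upstream and 200 bp downstream.

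In translation, initiation factors bring the small ribosomal subunit, the initiator tRNA and the messenger RNA together. The GTPase eIF2 carries the initiator tRNA, eIF2B recharges eIF2 with GTP, and the many-subunit complex eIF3 holds the small subunit ready. The factor eEF1A then delivers each aminoacyl-tRNA, with eEF1B and eEF1G in its exchange complex, and eEF2 moves the ribosome along. Synthetases load amino acids onto tRNAs, in the cytosol or in mitochondria, which translate their own few messages.

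The sequences under the strongest summits are shown first, because they carry the highest signals at these genes. They belong to 4 of the 5 strongest members, with 50 bases on each side of the pooled summit, and the strongest synthetase and the second eEF1A gene were added after the values were seen. They were read from the RefSeq genome of WBcel235 on the strand of the gene, 5′ to 3′. Capitals mark matches on either strand to any of 7 motifs searched: the string CTGCGTCT, the repeat GAGAGA, the TATA box core TATAAA, a run of T (TTTTTT), the tRNA promoter letters GTTCGA, the intron end TTTCAG and the CpG pair CGCG. A base may belong to matches of more than 1 motif.
eef-1A.1, chrIII:6972008-6972108, minus strand: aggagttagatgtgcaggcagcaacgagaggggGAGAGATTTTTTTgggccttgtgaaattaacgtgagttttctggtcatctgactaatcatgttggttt
eif-1.A, chrIV:4810502-4810602, plus strand: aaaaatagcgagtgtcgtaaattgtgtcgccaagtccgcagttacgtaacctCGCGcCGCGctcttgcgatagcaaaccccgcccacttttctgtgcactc
eif-2A, chrII:10416649-10416749, plus strand: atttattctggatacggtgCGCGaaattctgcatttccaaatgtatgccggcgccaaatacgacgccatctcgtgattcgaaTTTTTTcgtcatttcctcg
eef-1G, chrV:10965601-10965701, plus strand: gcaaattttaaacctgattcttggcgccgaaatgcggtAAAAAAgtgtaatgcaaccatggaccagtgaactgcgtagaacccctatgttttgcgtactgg
ears-2, chrIV:390469-390548, minus strand: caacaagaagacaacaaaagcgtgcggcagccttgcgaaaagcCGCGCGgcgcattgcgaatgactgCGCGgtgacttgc
eef-1A.2, chrX:7823225-7823325, plus strand: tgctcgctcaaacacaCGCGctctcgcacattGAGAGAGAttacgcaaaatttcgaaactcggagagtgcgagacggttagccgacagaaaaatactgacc

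The ears-2 sequence has 80 bases, since 21 bases of the window that lie in its untranslated region were left out. The 4-letter motif CGCG, which reads the same on both strands, occurred in those of eif-1.A, eif-2A, ears-2 and eef-1A.2 and in neither that of eef-1A.1 nor that of eef-1G. Their GC content was 43.6% for eef-1A.1, 53.5% for eif-1.A, 44.6% for both eif-2A and eef-1G, 58.8% for ears-2 and 49.5% for eef-1A.2. The median over the summit windows of all nuclear protein-coding genes with a pooled region was 36.6%, and over those of all members with one it was 35.6%. The eEF1A genes code for nearly the same protein, and the sources used here do not say how reads with several matches were treated. In the 6 stretches printed, every 32-base word occurred once in the genome (70 of 70 words in each full stretch and 49 of 49 in that of ears-2).

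Most of these genes had a region at the 5′ end, but hardly any in the thresholded list. In the pooled relaxed list 54 of the 64 genes (84.4%) had one, against 41.5% of all protein-coding genes. The thresholded list had a region at 1 of the 64 (1.56%), eef-1A.1, against 1.13% of all genes, so its share was close to the background. Between these ends lie the pooled regions with the smallest q-value in the list (a −log10 q of 3.47). Such a region lay at 15 members (23.4%), against 5.06% of all genes. These 15 comprised 10 initiation factors, 3 elongation factors and 2 synthetases. Counts at this q-value were added after the data were seen.

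Factors had stronger pooled regions than synthetases. The median pooled signal over genes with a region was 15.7 for the 6 elongation factors, 10.8 for 22 initiation factors and 6.28 for 26 synthetases. Over all 8295 genes with a region it was 5.80, and over the 54 members 7.65, at a median rank of 5138 in the list against 10131 for all genes. Of the 12 members with the highest signal, 11 were factors and 1 was a synthetase. By rank, 6 members had a region among the 500 strongest (1.66% of all genes did), 11 among the 1000 strongest (3.48%), 19 among the 2000 strongest (6.58%) and 26 among the 5000 strongest (13.0%). The 26 comprised 14 initiation factors, 5 elongation factors and 7 synthetases, which is 56.0%, 83.3% and 21.2% of each class. The signal gap was not alike in the replicates. In replicate 2 the medians of elongation factors, initiation factors and synthetases lay close together, at 5.12, 4.51 and 4.14. In replicate 3 they were 8.05, 9.28 and 4.49, so initiation factors stood above elongation factors there.

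**Figure D1:**
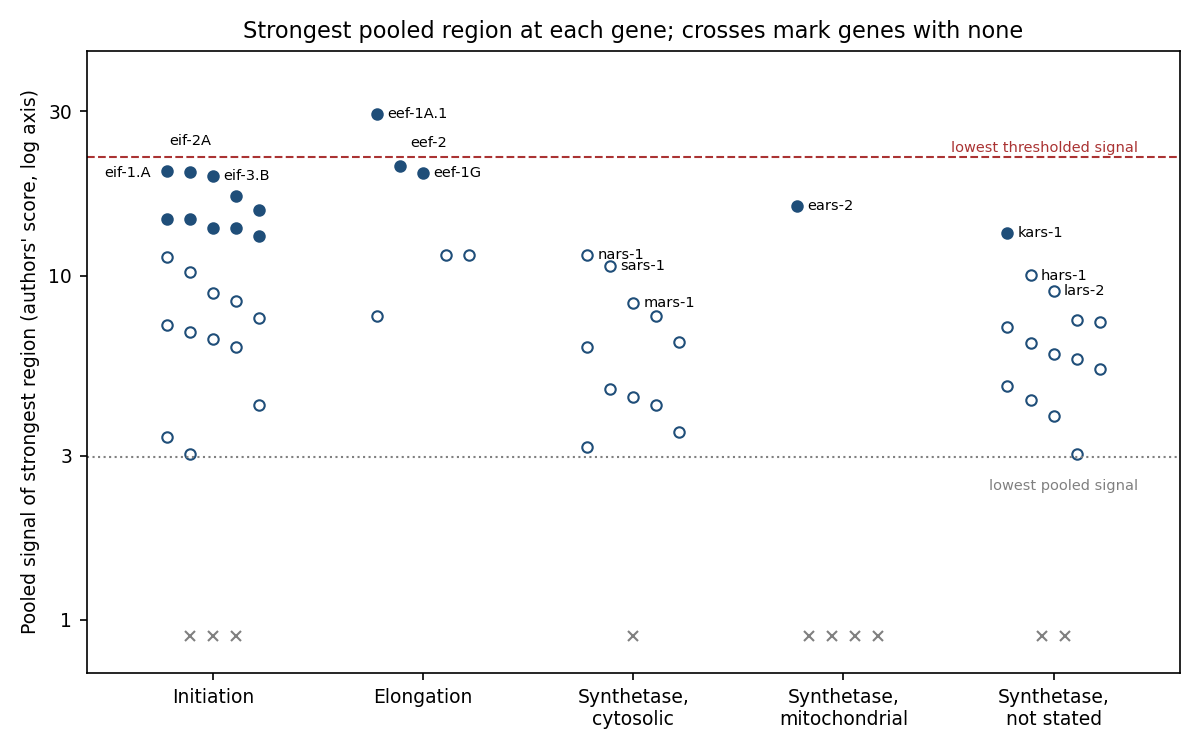
Signal of the strongest pooled region at each gene (authors' score, log axis) by class, 1 point per gene, with filled points for regions at the smallest q-value and crosses, placed below the axis range of the data, for genes with no pooled region. Only eef-1A.1, at 29.5, lies above the dashed line at the lowest thresholded signal of 22.1, and 4 of the 5 synthetases named mitochondrial are crosses.

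The replicates gave the same order of classes in the share of genes with a region, in different numbers. Replicate 2 had a region at 33 members (51.6%), against 21.2% of all genes, and replicate 3 at 49 (76.6%), against 39.9%. Both had a region at 28 members (43.8%), against 13.2% of all genes. All 6 elongation factors were among the 28, with 13 of 25 initiation factors and 9 of 33 synthetases. Regions of the 2 replicates that overlapped each other lay at 25 members (39.1%), against 10.3%. In replicate 2 alone the classes stood at 6 of 6, 16 of 25 and 11 of 33, and in replicate 3 alone at 6 of 6, 19 of 25 and 24 of 33. The gap between factors and synthetases in the share of genes was thus wider in replicate 2, the shorter list.

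**Figure D2:**
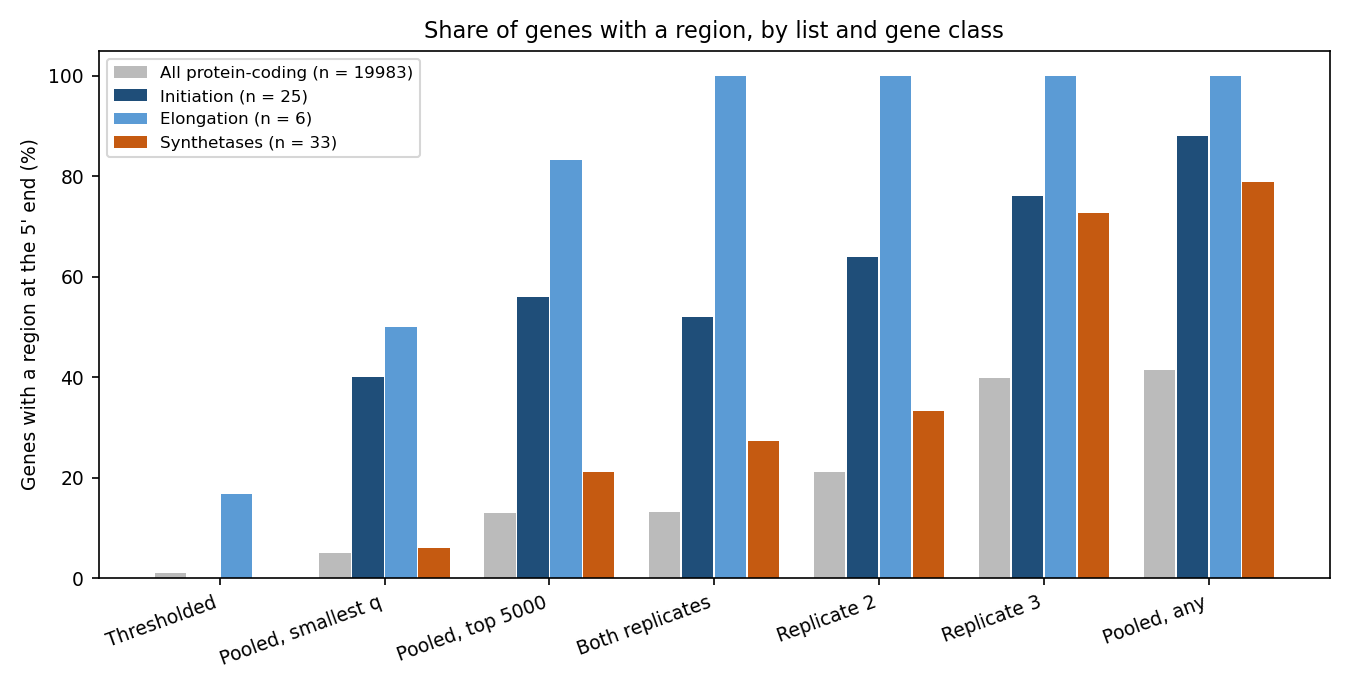
Percentage of genes with a region at the 5′ end (bars from 0) by list, for all protein-coding genes, initiation factors, elongation factors and synthetases. In both replicates the synthetases reach 27.3%, the initiation factors 52.0% and the elongation factors 100%, with all genes at 13.2%.

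The elongation factors held the strongest regions of the set. The gene eef-1A.1 (locus F31E3.5, chrIII:6970026-6971712) codes for eEF1A. Its region at chrIII:6971900-6972215 had a pooled signal of 29.5, rank 131 of the list, with the summit 346 bp upstream of the 5′ end. The 5′ ends of eef-1A.1 and of its head-to-head neighbour rfc-4 lie 541 bp apart, and this summit was nearer to that of rfc-4. Its signal was 3.55 in replicate 2, rank 4379, and 27.1 in replicate 3, rank 59. The thresholded call at eef-1A.1 therefore stood beside a strong region in replicate 3 and one in replicate 2 with 35.3% of that list above it. The second eEF1A gene, eef-1A.2 on chromosome X, had a pooled signal of 7.65, rank 5146, with 3.29 in replicate 2 and 3.05 in replicate 3. All 3 of its summits lay 379 to 390 bp upstream.

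The gene eef-2 (F25H5.4, chrI:9163577-9166810), for the translocation GTPase eEF2, had a pooled signal of 20.9, rank 400. Replicate 2 gave 6.70, rank 787, and replicate 3 gave 15.2, rank 340, so eef-2 was high in both. The gene eef-1G (F17C11.9, chrV:10965719-10967922), for the gamma subunit of the exchange complex, had 19.9 in the pooled list, rank 453, with the summit 68 bp upstream. It had 9.55 in replicate 2, rank 233, and 8.79 in replicate 3, rank 1541.

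The exchange subunit genes eef-1B.1 and eef-1B.2 had nearly equal pooled signals, 11.5 for each, and unlike replicates. At eef-1B.2 the signal was 10.8 in replicate 2, rank 149, and 2.46 in replicate 3, rank 23803. The replicate 3 region lay 738 bp upstream, away from the pooled and replicate 2 summits at 130 and 95 bp upstream. At eef-1B.1 it was 3.03 in replicate 2 and 7.30 in replicate 3, where the summit lay 18 bp upstream, while the pooled and replicate 2 summits lay 708 and 734 bp upstream, inside the neighbouring gene aco-2. The eef-1B.1 pooled region also overlapped a weaker replicate 3 region, of signal 3.64, so it was found in all 3 relaxed lists, while that of eef-1B.2 overlapped no replicate 3 region.

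Among the initiation factors eIF3 had the most regions at the smallest q-value. Of its 11 subunit genes 9 had a pooled region and 6 had one at that q-value, namely eif-3.B, eif-3.C, eif-3.D, eif-3.E, eif-3.G and eif-3.I. The scaffold subunit gene eif-3.B had a pooled signal of 19.5, rank 477, with 3.74 in replicate 2 and 17.8 in replicate 3, rank 198. For eif-3.D, whose product can bind the mRNA cap in human cells, the pooled signal was 17.0, with 3.70 in replicate 2 and 12.3 in replicate 3. For eif-3.I it was 15.6, with 8.24 and 6.51. For eif-3.G it was 14.6, with 7.89 and 10.2. Thus eif-3.I and eif-3.G ranked high in replicate 2 (392 and 455), and eif-3.B and eif-3.D did not (3878 and 3984).

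The scaffold subunit gene eif-3.C had a pooled signal of 13.8 with 2.18 in replicate 2 and 11.6 in replicate 3, and eif-3.E had 13.0 with no replicate 2 region and 13.3 in replicate 3. The other 3 with a pooled region were eif-3.J at 8.44, eif-3.F at 6.53 and eif-3.H at 6.19. The peripheral subunit genes eif-3.K and eif-3.L had no region in any list, and the nearest pooled summits lay 2769 and 2100 bp from their 5′ ends. The spread within this 1 complex, from none to 19.5, covered nearly the whole range of the initiation factors.

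All 3 eIF2 subunit genes had a pooled region, and none reached the smallest q-value. The beta subunit gene eif-2beta had a pooled signal of 7.21, with 3.75 in replicate 2 and 3.52 in replicate 3. The gamma subunit gene eif-2gamma, for the GTPase itself, had 6.86, with 4.77 in replicate 2 and no replicate 3 region. The alpha subunit gene eif-2alpha, whose product is phosphorylated when initiation is lowered under stress, had 4.20, with 4.58 in replicate 2 and none in replicate 3. Its summit lay 848 bp upstream in a coding exon of phb-1, a prohibitin gene. Only eif-2beta had regions in both replicates.

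All 5 eIF2B subunit genes had a pooled region, of which only that of eif-2Bgamma, at 14.6, had the smallest q-value. That summit, 755 bp upstream, lay inside the tRNA gene sup-39, within an intron of another gene. It was the only strongest pooled region of a member within 500 bp of a tRNA, snoRNA or snRNA gene (1 of 54). The share over all genes with a pooled region was not computed for this count, so it describes the members only. Replicate 2 gave 2.38 at eif-2Bgamma, rank 9545, and replicate 3 gave 11.1, rank 821. The delta subunit gene had 10.2 and the beta subunit gene 7.51, both with a replicate 3 region and none in replicate 2. The alpha and epsilon subunit genes, at 3.40 and 3.03, lay near the lowest pooled signal of 2.98.

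The remaining initiation genes included 2 of the 5 strongest members. The gene eif-1.A, for the scanning factor eIF1A (H06H21.3, chrIV:4810934-4811983), had a pooled signal of 20.1, rank 440, with 7.96 in replicate 2, rank 436, and 13.6 in replicate 3, rank 477. It was thus among the 500 strongest regions in all 3 relaxed lists. The gene eif-2A, for a factor that can bring tRNA to the ribosome apart from eIF2 (E04D5.1, chrII:10416800-10419237), had 20.05, rank 442, with 4.21 and 9.28. The start-codon selection factor gene eif-1 had 13.7, with 2.28 in replicate 2 and 9.40 in replicate 3. The exon junction helicase gene eif-4A3 had 11.3, with 6.28 and 3.44, and eif-6, for a factor that keeps the large subunit apart, had 8.93, with 5.33 and 4.68. The gene eif-2D, for an initiator tRNA binding factor, had no pooled region and a replicate 2 region of signal 4.44.

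In the strongest 10% of both replicates' lists lay regions at 4 members, eif-1.A, eif-3.G, eef-1G and eef-2, against 1.88% of all genes (6.25% of members). Among the strongest 342 regions of replicate 2 alone were those at eef-1B.2 and eef-1G, in a set that lay at 1.22% of all genes. Among those of replicate 3 alone were regions at eef-1A.1, eef-2 and eif-3.B, in a set that lay at 1.09% of all genes. No member was in both sets, but the share of all genes in both was not computed. The member with the highest signal was eef-1B.2 in replicate 2 and eef-1A.1 in replicate 3. Over the 28 members with a region in both lists, the signals of the replicates had a Pearson's r of −0.11 and a Spearman's rho of −0.11 across genes. Over 2627 nuclear protein-coding genes the same values were 0.42 and 0.32. These are descriptions across genes that share libraries, and the genes are not independent replicates. The strongest regions of the replicates overlapped at 22 of the 28 members (78.6%), and at 69.0% of those 2627 genes. Both regions were confined to the same window around the gene, and no chance value was computed for the overlap.

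**Figure D3:**
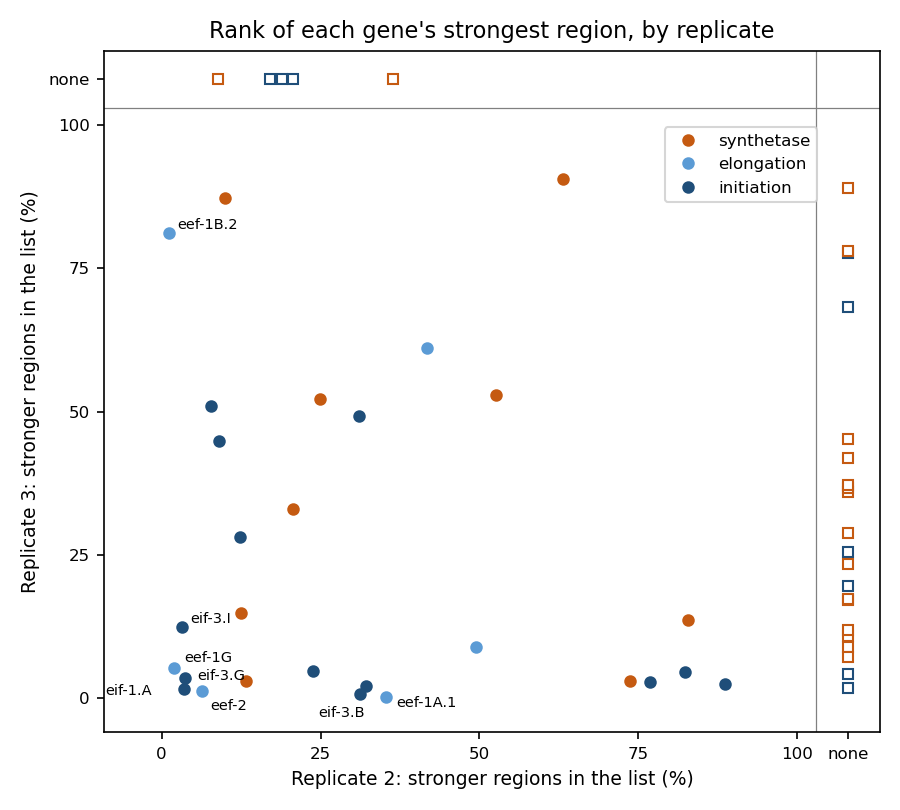
Rank of each member's strongest region in replicate 2 (x axis) and replicate 3 (y axis), each as the percentage of the list with a stronger region; open squares in the side bands are members with a region in only 1 list. Points near the lower left corner are strong in both, eif-1.A, eef-1G, eif-3.G and eef-2 among them, while eef-1B.2 and eef-1A.1 are near an edge of 1 list and not of the other.

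Synthetases were many in the relaxed lists and lower in median signal than the factors, though not lower than all genes with a region. A pooled region lay at 26 of 33 (78.8%) and 1 at the smallest q-value lay at 2 (6.06%), close to the 5.06% of all genes. These were ears-2, for the mitochondrial enzyme that charges with glutamate, and kars-1, for the lysine enzyme. No synthetase was in the thresholded list. The ears-2 region (T07A9.2, chrIV:390340-390655) had a pooled signal of 15.9, rank 796, with 5.21 in replicate 2 and 10.8 in replicate 3. Its 3 summits lay 30 to 40 bp upstream. The kars-1 region had 13.3, with 4.45 in replicate 2 and 4.35 in replicate 3. The kars-1 summits lay 836 bp upstream in the pooled list, 250 bp in replicate 2 and 933 bp in replicate 3. The pooled region overlapped a region of each replicate, in replicate 2 a weaker one of signal 3.38, rank 4872. Its summit was nearer to the 5′ end of kat-1 than to that of kars-1.

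By RefSeq product name 12 synthetase genes were cytosolic, 5 mitochondrial and 16 unstated. The 12 include ears-1 and pars-1, whose names give no compartment. They were taken as cytosolic because another gene of the same amino acid was named mitochondrial. A pooled region lay at 11 of the 12 cytosolic genes (91.7%), at 1 of the 5 mitochondrial genes and at 14 of the 16 unstated genes (87.5%). The 4 mitochondrial genes without one were aars-1, mars-2, pars-2 and rars-2, for alanine, methionine, proline and arginine. The cytosolic gene without one was wars-1, for tryptophan, and the unstated ones were dars-2 and yars-1. Replicate 3 gave 9 of 12, 1 of 5 and 14 of 16. Replicate 2 gave 6 of 12, 2 of 5 and 3 of 16, so the order of cytosolic and mitochondrial genes was the same there and the gap smaller.

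That contrast rested on 5 genes and on the names. A table of known compartments was made by hand after the data were seen. With it 6 more genes counted as mitochondrial (dars-2, fars-2, iars-2, lars-2, nars-2 and sars-2), and fars-1, fars-3 and lars-1 counted as cytosolic. Then 6 of 11 mitochondrial genes (54.5%) and 14 of 15 cytosolic genes (93.3%) had a pooled region. All 3 genes that serve both compartments, gars-1, hars-1 and kars-1, had one. Median signals of the genes with a region were then 6.89 for mitochondrial and 5.82 for cytosolic enzymes, in the opposite order to the shares. In both replicates a region lay at 1 of 11 and 6 of 15. A window reaching 1000 bp downstream, or counting any overlap with the window, placed a region at 3 of the 5 genes named mitochondrial. The nearest pooled summits to aars-1 and mars-2 lay 335 and 417 bp from their 5′ ends, outside the window.

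Within an amino acid the cytosolic and mitochondrial genes were set side by side, taking the compartment from the hand-made table where the product name gave none. For glutamate the mitochondrial ears-2 had 15.9 and the cytosolic ears-1 had 3.19. For isoleucine iars-2 had 6.37 and iars-1 3.51, and for leucine lars-2 had 9.05 and lars-1 4.77. For asparagine the order was the other way, with nars-1 at 11.5 and nars-2 at 7.41, as it was for serine, with sars-1 at 10.6 and sars-2 at 5.35. For phenylalanine fars-2 had 3.92, below the subunit genes fars-1 and fars-3 of the cytosolic enzyme at 5.91 and 5.73. Where both had a region, the gene of the mitochondrial enzyme was thus higher for 3 amino acids and lower for 3. For 5 more amino acids the cytosolic gene alone had a pooled region, namely aars-2 at 4.68 for alanine, dars-1 at 4.45 for aspartate, mars-1 at 8.34 for methionine, pars-1 at 4.22 for proline and rars-1 at 6.18 for arginine. Of 11 amino acids so compared, the cytosolic gene was the higher for 8, but only if a gene with no pooled region is counted as lower. A missing region is one that was not called. Among those 5 amino acids, replicate 2 had a region at dars-1 and mars-1 and none at dars-2 or mars-2. For proline it had one at pars-2, of signal 3.50, and none at pars-1. For alanine and arginine it had none at either gene.

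The strongest cytosolic genes were nars-1, sars-1, mars-1 and tars-1. The pooled signal of nars-1 was 11.5, with 2.44 in replicate 2 and 10.7 in replicate 3. That of sars-1 was 10.6, with 5.31 and 6.09, and its summit lay 102 bp downstream of the 5′ end. For mars-1, the methionine enzyme, it was 8.34, with 5.99 in replicate 2 and no replicate 3 region. For tars-1, the threonine enzyme, it was 7.66, with 2.94 and 3.36, which put it beside eef-1A.2 at the median of the members. After kars-1 the strongest unstated genes were hars-1, for histidine, at 10.01, lars-2 at 9.05 and nars-2 at 7.41. Of hars-1, lars-2 and nars-2 only hars-1 had a region in replicate 2, at 2.27, and all 3 had one in replicate 3, at 6.30, 4.63 and 5.09. The cytosolic gene not yet given, cars-1 for cysteine, had 6.42. The unstated ones had 7.33 at yars-2, for tyrosine, 7.11 at vars-1, for valine, 4.36 at qars-1, for glutamine, and 3.04 at gars-1, for glycine. None of these 5 genes had a replicate 2 region.

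Of the 10 members without a pooled region 8 had none in any list. The exceptions were eif-2D and pars-2, which had a replicate 2 region only, of signal 4.44 and 3.50. The nearest pooled summit lay 335 to 4803 bp from the 5′ ends of the 10, with rars-2 the farthest. The tyrosine gene yars-1 lies 110 bp downstream of mars-2 on the same strand, and neither had a region. Whether they share a promoter was not tested.

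The summits stood mostly upstream of the 5′ end. Of the 54 strongest pooled summits 31 (57.4%) lay within 400 bp upstream, against 46.7% of all 8295 genes with a pooled region, and 34 were intergenic, 10 intronic, 5 in coding exons and 5 in other exons. None of the 28 factors had its summit downstream of the 5′ end, while 7 of the 26 synthetases (26.9%) did, against 13.1% of all genes. Those 7 were fars-2, fars-3, iars-1, lars-2, rars-1, sars-1 and yars-2. Of the 15 regions at the smallest q-value, 13 had summits within 400 bp upstream and 14 overlapped regions of both replicates. No share over all genes was computed for the counts among these 15 or for the intergenic, intronic and exonic summits. Those counts therefore describe the members only.

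**Figure D4:**
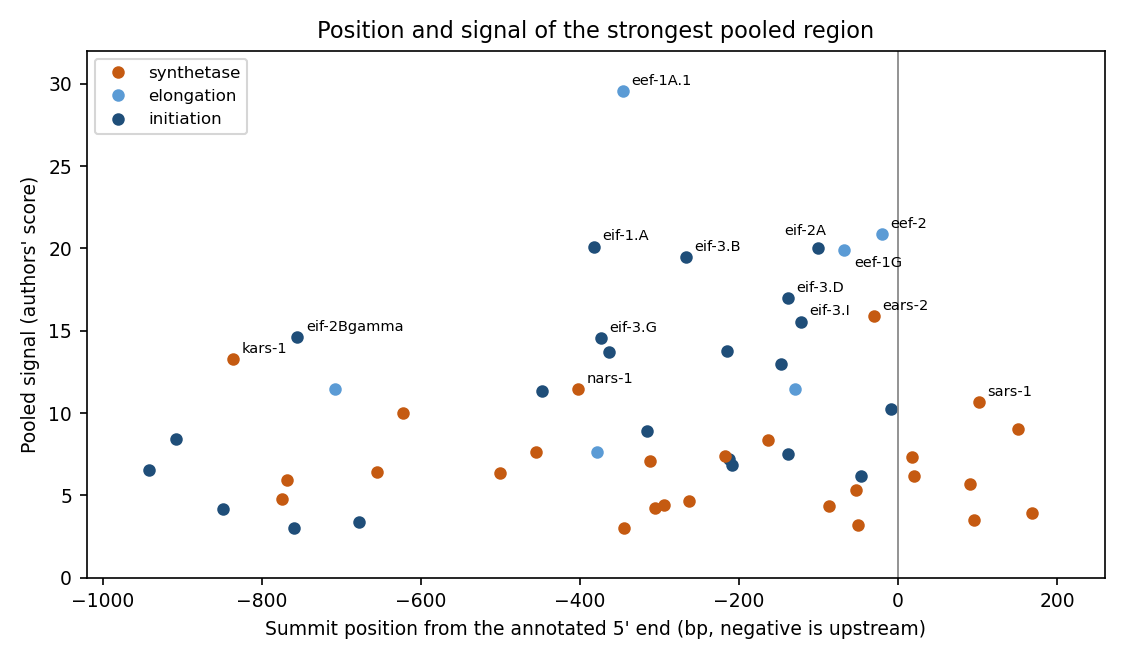
Distance of each strongest pooled summit from the annotated 5′ end (x axis, bp, negative upstream) against its pooled signal (y axis, authors' score), by class. The points above 15 lie between 382 and 20 bp upstream, and the points right of the line at 0 are all synthetases, up to 10.6.

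Many of the members share their upstream space with another gene. A neighbour transcribed away from the member, head to head within 1000 bp, lay at 28 of 64 (43.8%), against 17.3% of all genes. It did so at 17 of 31 factors and 11 of 33 synthetases. Of these 28 members 25 (89.3%) had a pooled region, against 56.1% of all genes so arranged. A summit in such a space cannot be given to 1 of the genes from these lists. Upstream neighbours on the same strand were also more frequent, within 500 bp at 18 of 64 members (28.1%), against 18.0% of all genes. Of these 18 members 14 (77.8%) had a pooled region, against 45.7% of all genes so arranged. The strongest pooled summit was in no other protein-coding gene's window at 27 of 54 members. It was nearer to the member's own 5′ end than to any other protein-coding gene's at 38 (70.4%). The shares over all genes were not computed for these counts, so they describe the members only. No region was shared between members.

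Sequence around the summits differed between factors and synthetases. CGCG occurred in the summit window of 13 of 28 factors (46.4%) and of 5 of 26 synthetases (19.2%), against 19.7% of 8283 nuclear genes with a pooled region. Median GC content of these windows was 43.6% for factors and 31.2% for synthetases, against 36.6% for the nuclear genes. TTTCAG, the letters that worm introns commonly end with, occurred in 38.5% of synthetase windows and 14.3% of factor windows, against 17.2%. CTGCGTCT occurred in no member's window (0 of 54, against 2.51%), and GTTCGA, letters found in the internal promoter of tRNA genes, in 1 of 54, that of eif-2Bepsilon (against 3.95%). The shares for GAGAGA were 11.1% of members and 9.54% of all, for TATAAA 7.41% and 11.3%, and for TTTTTT 33.3% and 42.7%.

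In the windows from 250 bp upstream to 50 bp downstream of every 5′ end, whether or not a region lay there, CGCG occurred in 67.7% of factors, 42.4% of synthetases and 27.8% of all nuclear genes. Both classes of members were thus above all genes for CGCG in these windows, while at the summits only the factors were. The gap in GC content was absent here, with medians of 32.2% for factors, 33.2% for synthetases and 34.2% for all nuclear genes. The higher share of TTTCAG in synthetases than in factors was absent too. TTTCAG occurred in these windows in 64.5% of factors, 60.6% of synthetases and 52.2% of all nuclear genes. A match is a string of letters and no measure of binding.

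Other translation genes, listed by name with earlier results of these data known, had a pooled region as often as the factors did. Of 37 listed, 31 were in the annotation under that symbol, 29 of them (93.5%) had a pooled region and 7 (22.6%) one at the smallest q-value. Their median pooled signal was 8.05, and 11 of 31 had regions in both replicates, fewer than the 19 of 31 factors. In the thresholded list lay regions at larp-1, for a La-related RNA-binding protein, at 37.1, and at ifet-1, for an eIF4E-binding protein, at 35.7, but their windows were shared with wip-1 and with rps-3A. The other 5 at that q-value were iff-2, for eIF5A, at 21.7, tufm-1, for the mitochondrial EF-Tu, at 20.7, abcf-2 at 20.2, the release factor gene erfa-3 at 18.0 and abcf-1 at 13.9. The summits of iff-2, abcf-2, erfa-3 and abcf-1 also lay in the windows of other protein-coding genes, and that of tufm-1 did not. The genes without a pooled region were mct-1 and glp-4, the latter for a valine enzyme.

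Set beside these, 78 genes named rpl- or rps- for ribosomal proteins had a thresholded region at 18 (23.1%), against 1 of 64 members, and a region in both replicates at 66 (84.6%), against 28 of 64. Their median pooled signal was 12.3. The 8 genes of the chaperonin CCT, which folds actin and tubulin, had a thresholded region at 3 and a median pooled signal of 12.5. The median of the 6 elongation factors, 15.7, was above both and that of the initiation factors, 10.8, below both. That of the synthetases, 6.28, lay close to the 5.80 of all genes. No test was made of any of these differences, because there was 1 group and genes and regions are not replicates of a condition.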

How the data were processed

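The deposited narrowPeak lists for build ce11 were used. Per the deposited text beside the lists, relaxed lists were called for each replicate and for the pooled replicates against a control, and the thresholded list was made from them by the irreproducible discovery rate method. The sources used here do not give the peak caller, its settings, the aligner or the depths. The deposited signal of column 7 is the authors' score, and the deposited column 9 holds −log10 q-values. The deposited column 10 gives the summit as an offset from the region's start. Lists for ce10 were not used.

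Genes, 5′ ends and sequence came from the RefSeq genome and annotation of WBcel235. Each gene received its strongest region with a summit from 1000 bp upstream to 200 bp downstream. Regions overlapped when they shared at least 1 bp. Medians were taken over genes with a region. Summit windows reached 50 bp to each side. Sequences were printed for the 4 strongest members off chromosome I. Named genes were all members with a thresholded region, the 12 with the highest pooled signal, the 4 strongest synthetases of each compartment class, all eif-2 and eef-1 subunits, the median member and both genes of an amino acid. Genes outside that rule were named after their values were seen. The members and lists were chosen with earlier results of these data known. A synthetase was cytosolic or mitochondrial by its product name, or cytosolic where another gene of its amino acid was named mitochondrial.

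Alternatives were other windows, overlap in place of the summit, any annotated mRNA's 5′ end, shorter lists, leaving out regions near short RNA genes, and single replicates. The placing of summits was tested on simulated data. Python 3.11.15, numpy 2.4.6, scipy 1.17.1 and matplotlib 3.10.9 were used.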

Additional observations from a re-analysis of the deposited data

How the results depend on the processing

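Of the 66 recomputed values 55 stayed within 1.5 times the reported count or, for the median signal, within the SD of the replicates' own medians (0.927). That SD is a rough tolerance only, since the medians are over different genes and their scales may differ. Some of the 55 could not have moved. A cut to 12414 regions leaves the replicate 2 list whole, and the members' pooled regions at the smallest q-value all ranked above that cut. In place of the pooled list, a single replicate's list gave 33 to 49 members with a region (54 reported), 6 to 9 cytosolic genes (11 reported) and 1 to 2 mitochondrial genes (1 reported). In place of regions in both replicates it gave 33 to 49 members (28 reported). In place of the thresholded list, the strongest 342 regions of a single replicate gave 2 to 3 members (1 reported), and 1.09% to 1.22% of all genes. With relaxed lists cut to 12414 regions, 6 cytosolic genes had a region and the median signal was 10.1 in place of 7.65, since only stronger regions were kept. Mitochondrial genes with a region numbered 3 with the window reaching 1000 bp downstream, 3 with any overlap and 6 with the class widened by hand, an alternative chosen after the data were seen. Members with a pooled region numbered 42 to 57 under the other settings, while the shares of all genes moved from 41.5% to between 23.5% and 52.4%. No paired analysis was possible because there was 1 group and no contrast between samples. Unknown depth limits what a missing region means: it was not called there, and the gene may still be bound.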

Other observations

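The upstream neighbours of the 6 elongation factor genes were looked up after their values were seen, and no test was made. At 4 of the 6 the neighbour is transcribed away from the member, and the distance given is that between the 5′ ends. For eef-1A.1 it is rfc-4, a clamp loader subunit gene, at 541 bp, and the summit was nearer to the 5′ end of rfc-4. For eef-2 it is clsp-1, for a claspin protein, at 311 bp, and for eef-1G it is ctf-4, for a replication fork protein, at 180 bp. In both of these the summit was nearer to the elongation factor gene. For eef-1B.1 it is aco-2, an aconitase gene, at 331 bp, and the summit was nearer to aco-2. The neighbours of eef-1B.2 and eef-1A.2, fcd-2 and sek-1, lie on the same strand as the member, 295 and 2618 bp away. The strongest synthetase region, at ears-2, also lay in a head-to-head space, of 92 bp, shared with uncp-18. Of the 15 members with the smallest q-value 9 (60.0%) had a head-to-head neighbour within 1000 bp. The share among all genes with a region at that q-value was not computed. The lists give no strand, so which gene of each pair a region belongs to was not tested.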
